A study of Mus musculus with 16 samples.

Results

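PolyA RNA was compared between the exosomes released by BFC012 cells and the BFC012 cells themselves. BFC012 is a stromal line from the fetal liver of C57BL/6 mice at 14.5 dpc (days post coitum), and is labelled as not supporting hematopoietic stem and progenitor cells (HSPC). By their labels, 4 of the 16 samples of the series belong to this comparison, 2 of BFC012 exosomes and 2 of BFC012 cells. Values of AFT024, a stromal line of the same strain, tissue and stage that is labelled supportive, are used only to show where BFC012 differs (2 exosome and 2 cell samples). Per the series' design text, exosome RNA of several extractions was pooled and sequenced as technical replicates, so that each group comes as 1 merged value. No difference below therefore has a replicate check, no p-value was computed, and every interval covers counting error only. Neither the isolation of the vesicles nor the serum of the medium is described in the sources used.

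Exosomes are small membrane vesicles that form inside endosomes and are released when these fuse with the cell surface. They enclose a sample of the RNA of the cell. In the cell, messenger RNAs of secreted and membrane proteins are mostly translated on the endoplasmic reticulum (ER), to which a hydrophobic stretch near the N-terminus of the new protein directs the ribosome, whereas messenger RNAs of cytosolic and nuclear proteins are translated on free ribosomes. RNAs of the mitochondrial genome are made, polyadenylated and translated inside mitochondria.

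The tables held 16344350 reads of BFC012 exosomes and 35874383 reads of BFC012 cells, recovered as whole reads from the deposited values. Genes with at least 50 reads over both groups were measured, which kept 11971 genes, 11159 of them protein-coding. The read ratio is exosome reads over cell reads, divided by the median of this quotient over the measured genes, so that 1 is the typical gene. A gene was counted as higher or lower at 2-fold or more. By this rule 3017 genes were higher in exosomes (25.2%) and 2823 were lower (23.6%), together 48.8% of those measured. The middle of the distribution lay between a ratio of 0.520 and 2.02 (25th and 75th percentile). When each group was scaled to its total of reads, every log2 ratio shifted by -0.64, and the counts became 1699 higher and 4809 lower. Higher genes then made up 26.1% of the counted genes, against 51.7% in the main scaling. All ratios below are therefore relative to the typical gene.

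Markers of stromal cells were present, and those of erythroid cells were at or near 0. Of 16 mesenchymal stromal markers, 15 had reads in exosomes and 15 in cells, with Thy1 at 0 in both. Their summed level was 2782 RPM (reads scaled to the library total) in exosomes and 7484 RPM in cells, and Cxcl12 led both. The 16 mesothelial and urothelial markers summed to 333 RPM in exosomes and 1205 RPM in cells, where Upk3b had the most reads. Not all of them were well covered. Muc16 was at 0 reads in both, and the keratins Krt8, Krt18 and Krt19 had 8, 2 and 18 exosome reads and 21, 9 and 92 cell reads. Hepatoblast markers summed to 15.1 RPM in exosomes and 34.2 RPM in cells. Foxa2 led both with 141 exosome reads and 976 cell reads, and the hepatocyte genes Ttr and Fgb were at 0 reads in both. Endothelial markers stood at 32.8 RPM in exosomes and 94.5 RPM in cells, nearly all from Flt1. Erythroid markers had 4 exosome reads and 5 cell reads, and leukocyte markers summed to 7.53 RPM in exosomes and 7.81 RPM in cells, most of it Cd14. The platelet list summed to 31.4 RPM in exosomes and 15.6 RPM in cells, and most of these reads came from Itga2b, an integrin chain, with 474 in exosomes and 517 in cells. In the bulk RNA of the cells, fewer cells of a type and less RNA per cell cannot be told apart. By read ratio, 1 of 13 measured stromal markers was 2-fold or more higher in exosomes and 7 were lower. Of 11 mesothelial markers 0 were higher and 5 lower, against 25.2% and 23.6% of all measured genes.

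Several of the most abundant transcripts of BFC012 exosomes took a far smaller share of the cell reads. Kif1c, a kinesin motor that carries vesicles along microtubules, had 631504 exosome reads and 10796 cell reads, or 3.86% of all exosome reads. Its read ratio was 200 (95% counting interval 196 to 204). Kctd10, an adaptor of a ubiquitin ligase, had 333986 exosome reads and 18497 cell reads, a ratio of 61.8 (60.9 to 62.7). Sos2, an exchange factor that activates Ras, had 192846 exosome reads and 1810 cell reads, a ratio of 365 (348 to 382). In FPKM (fragments scaled to the transcript's length and the library total) Sos2 stood at 3067 in exosomes and 14.2 in cells. The remaining leaders were Sh3pxd2a, a scaffold of podosomes with a ratio of 44.6, and Arhgap11a, a GTPase-activating protein with 56.0. Anp32b, a nuclear chaperone, had a ratio of 17.7.

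Abundant messages of the protein synthesis machinery were also among the leaders of the exosomes, at far lower ratios. Eef1a1, elongation factor 1, had 87612 exosome reads and 251160 cell reads, a ratio of 1.19 (1.18 to 1.20). Eef2, the translocation factor, had 85662 exosome reads and 140040 cell reads, a ratio of 2.09. Its log2 ratio in FPKM, relative to the median gene, was 0.86. The leaders also held a pair of transcripts without a known protein. Gm12840, a lincRNA at chr4:117700188-117700923 (mm10), had 94575 exosome reads and 345 cell reads, a ratio of 938 (844 to 1046). Gm10524, unclassified in GENCODE M21, had 80730 exosome reads and 900 cell reads.

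Genes at 10-fold or more were rarer. They numbered 293 on the exosome side (2.45% of measured genes) and 172 on the cell side (1.44%). Among protein-coding genes of at least 1000 reads and 10 FPKM in the higher group that also passed 2-fold in FPKM, the highest ratios after Gm10800, Sos2 and Kif1c belonged to Cdc42bpg, a kinase acting below Cdc42, with 75737 exosome reads and 1369 cell reads (ratio 189). Rdh10, which makes retinal from retinol, had 8821 exosome reads and 228 cell reads (132). Trak2, an adaptor that links mitochondria to kinesin, had 80248 exosome reads and 2988 cell reads (91.9). Mturn, Svop, Nol3 and Stradb followed at 91.3, 66.1, 57.3 and 50.9. Svop is a synaptic vesicle protein, Nol3 an inhibitor of apoptosis and Stradb a pseudokinase of the LKB1 complex. Trak2 and Stradb are neighbours on chromosome 1, read from opposite strands. Their annotated spans do not overlap, since Trak2 ends at 58973430 and Stradb starts at 58973522. Of 290 genes 10-fold or more higher with a known position, 39 (13.4%) had a measured neighbour that was also 10-fold or more higher. This compares with 4.58% of the other genes. The 290 include the 7 repeat-like genes described below, which lie close together and may share reads. The library kit does not mark strand, so reads of overlapping neighbours cannot be told apart, which also bears on the antisense gene Brip1os (73940 exosome reads and 6334 cell reads).

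**Figure D1:**
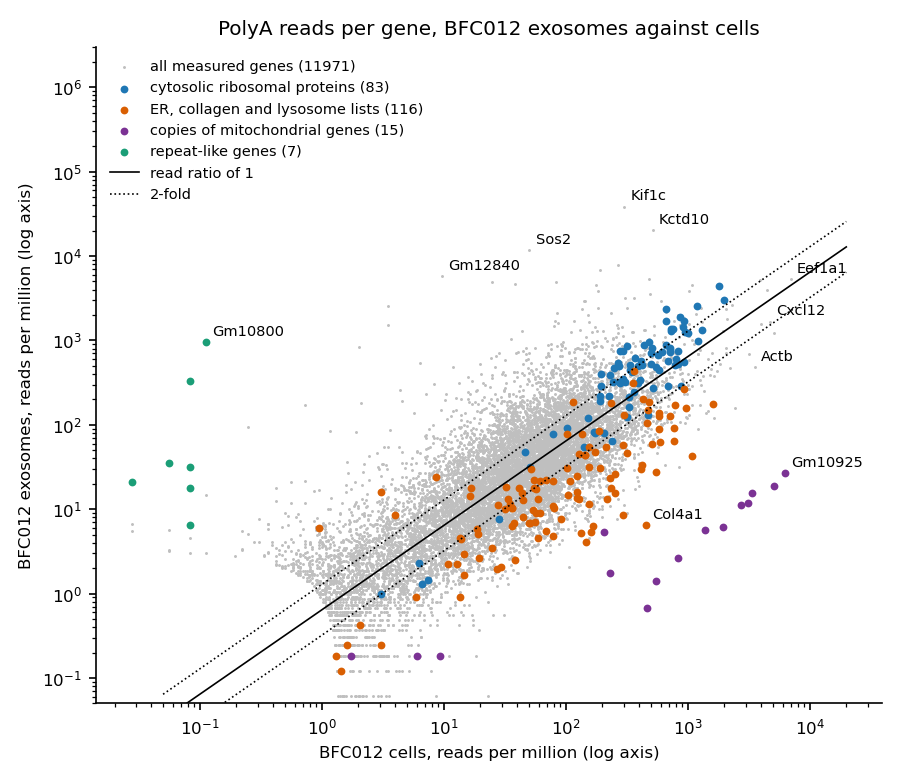
RPM of each measured gene in BFC012 exosomes (vertical, log axis) against BFC012 cells (horizontal, log axis), with genes of 0 reads drawn at 3 reads. The solid line is a read ratio of 1 and the dotted lines are 2-fold; the copies of mitochondrial genes lie far below the lines, most ER, collagen and lysosome genes lie below them, and the repeat-like genes lie at the upper left.

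Among the highest ratios were those of a family of related, repeat-like genes. All 7 lie in a pair of places, at the start of the assembled chromosome 9 and on chromosome 2 near Gm10800 (chr2:98666547-98667301, mm10). Gm10800 had 15698 reads in exosomes and 4 in cells, a ratio of 13435 (5246 to 49314). Gm26870 (chr9:3000282-3038313) had 5455 exosome reads and 3 cell reads, a ratio of 6225 (2129 to 30193). Gm10717 had 573 exosome reads and 2 cell reads, and Gm10801 had 339 and 1. Gm10719, Gm10715 and Gm11168 had 524, 293 and 105 exosome reads and 0 cell reads, so their ratios were at least 598, 334 and 120 against a floor of 3 reads. The lower ends of their 95% counting intervals were 485, 270.2 and 95.7. Over the family this made 22987 reads in exosomes and 10 in cells. Pairs of these transcripts were 73.0% to 96.2% identical, so reads may be shared among them and the split within the family is uncertain. Of the transcripts of Gm26870, number 202 matched itself at a shift of 234 bases with 95.9% identity, the highest value found, and the others with 81.5% and 78.3%. The best shift gave 60.8% to 69.7% in transcripts of Gm10717, at 234 or 237 bases, and 56.3% in Gm10800, at 225 bases. A unit of 234 bases is known as the mouse major satellite, which lies beside the centromeres. The first and second units are given from GENCODE M21 (minus strand of chr9:3000282-3038313), with the 17 bases that differ between them in capitals.
Gm26870 unit 1: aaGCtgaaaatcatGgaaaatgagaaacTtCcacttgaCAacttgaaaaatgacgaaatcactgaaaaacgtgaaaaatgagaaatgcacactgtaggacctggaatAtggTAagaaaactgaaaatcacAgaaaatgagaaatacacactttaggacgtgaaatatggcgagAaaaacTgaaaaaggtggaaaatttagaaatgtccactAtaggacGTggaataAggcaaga
Gm26870 unit 2: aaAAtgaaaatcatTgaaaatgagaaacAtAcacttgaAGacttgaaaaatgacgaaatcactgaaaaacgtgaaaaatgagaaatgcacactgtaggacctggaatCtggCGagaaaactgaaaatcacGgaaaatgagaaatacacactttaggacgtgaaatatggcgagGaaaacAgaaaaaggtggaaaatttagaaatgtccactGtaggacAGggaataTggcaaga
In AFT024 the family had 2736 exosome reads and 47 cell reads. Gm10800 differed between the lines, with a ratio of 13435 in BFC012 and 532 (356 to 832) in AFT024.

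At the other end stood copies of mitochondrial genes. The 37 genes of the mitochondrial genome were all listed at 0 reads in every group, but 15 measured genes elsewhere in the genome matched one of them at 90.7% to 100% identity over at least 100 bases. They had 1762 reads in exosomes and 944563 in cells, which is 0.0108% of exosome reads and 2.63% of cell reads. Taken as 1 sum, the ratio was 0.00639, or 157-fold lower in exosomes than for the typical gene. Gm10925, on chromosome 1, matched mt-Atp6 (a subunit of ATP synthase) at 100% and had 437 exosome reads and 226532 cell reads, the second highest count in the cells. Its ratio was 0.00660 (0.00600 to 0.00725). Gm13340 matched mt-Co1, the catalytic subunit of cytochrome oxidase, at 97.6% and had 311 exosome reads and 184340 cell reads (ratio 0.00578). The 10 copies with the most cell reads lay between 0.00227 and 0.00713, while their counts in the cells spanned 16598 to 226532 reads. All 15 were 2-fold or more lower, and 9 of the 10 lowest ratios among all measured genes were such copies. Which of the reads came from mitochondrial RNA and which from the nuclear copy was not tested. The letters show how little separates them. Below is the stretch of 60 bases in which mt-Co1 (chrM:5328-6872, plus strand) and Gm13340 (chr2:22588103-22589647, minus strand) differ most, bases 460 to 519 of each transcript, with the 4 differing bases in capitals, followed by the first 60 bases of Gm10925 (chr1:24613974-24614651, minus strand), which equal those of mt-Atp6. All are from GENCODE M21 on GRCm38.
mt-Co1: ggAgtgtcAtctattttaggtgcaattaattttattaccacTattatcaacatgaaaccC
Gm13340: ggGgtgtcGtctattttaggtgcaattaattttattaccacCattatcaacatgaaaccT
Gm10925: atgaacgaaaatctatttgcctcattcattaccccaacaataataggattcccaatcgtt

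**Figure D2:**
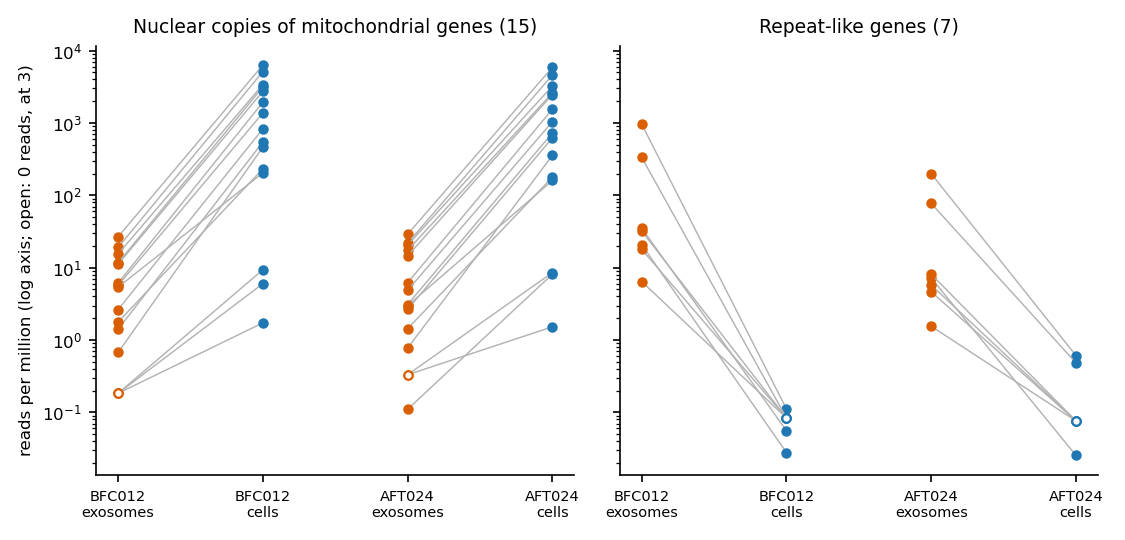
RPM (log axis) of the 15 nuclear copies of mitochondrial genes (left) and the 7 repeat-like genes (right) in exosomes and cells of BFC012 and AFT024; each line joins 1 gene, and open circles mark 0 reads drawn at 3 reads. In both lines the copies were lower in exosomes than in cells and the repeat-like genes were higher, with the repeat-like genes reaching higher levels in BFC012 exosomes than in AFT024 exosomes.

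Messages of secreted, lysosomal and membrane proteins formed a large group on the cell side. Among protein-coding genes that met the same limits as above, the 12 lowest ratios were led by the mitochondrial copy Gm4076, followed by Col4a1 and 10 further genes, all of which code for secreted, lysosomal or membrane proteins. Col4a1, a chain of the basement membrane collagen IV, had 106 exosome reads and 16256 cell reads, a ratio of 0.0223 (0.0183 to 0.0270). Its partner chain Col4a2 had 140 exosome reads and 10563 cell reads, a ratio of 0.0454. Nt5e, the surface nucleotidase CD73, had 34 exosome reads and 3800 cell reads, a ratio of 0.0306. The others included Tmed5, a cargo receptor between ER and Golgi (0.0458), Prss23, a secreted protease (0.0458), Asah1, the lysosomal ceramidase (0.0516), and Myadm, a membrane protein (0.0541). Emp1, a membrane protein, stood at 0.0584, Ctsl, a lysosomal protease, at 0.0586, and Sod3, the secreted superoxide dismutase, at 0.0587.

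What these messages share can be read at the start of the coding sequence. Of the 11 lowest genes with a usable coding sequence, 10 code for a hydrophobic stretch within the first 30 residues, defined as a mean Kyte-Doolittle value of at least 2 over 9 residues. Of the 11 highest, 1 does (Rdh10). The first 90 coding bases are given for 4 genes on the cell side and 3 on the exosome side, from GENCODE M21, with capitals marking the 27 bases that code for the most hydrophobic 9 residues among the first 30.
Col4a1: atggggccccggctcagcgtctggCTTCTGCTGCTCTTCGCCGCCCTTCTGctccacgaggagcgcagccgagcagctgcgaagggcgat
Nt5e: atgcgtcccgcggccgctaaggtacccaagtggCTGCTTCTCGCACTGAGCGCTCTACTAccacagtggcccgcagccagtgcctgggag
Prss23: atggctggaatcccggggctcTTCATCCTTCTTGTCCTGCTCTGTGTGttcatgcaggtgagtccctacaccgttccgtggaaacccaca
Pdia4: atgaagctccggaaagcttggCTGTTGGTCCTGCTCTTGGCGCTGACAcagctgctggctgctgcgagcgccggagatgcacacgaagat
Kif1c: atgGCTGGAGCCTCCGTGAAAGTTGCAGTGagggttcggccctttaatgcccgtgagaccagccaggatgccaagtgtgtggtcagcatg
Sos2: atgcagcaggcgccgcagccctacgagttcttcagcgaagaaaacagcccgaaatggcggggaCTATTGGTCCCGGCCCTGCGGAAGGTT
Kctd10: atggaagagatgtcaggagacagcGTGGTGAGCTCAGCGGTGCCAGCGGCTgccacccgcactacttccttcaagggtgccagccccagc
The marked stretches reach 3.24, 2.84, 3.71 and 3.12 in Col4a1, Nt5e, Prss23 and Pdia4, and 1.43, 1.29 and 1.64 in Kif1c, Sos2 and Kctd10.

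The same split held over all protein-coding genes. Of 11081 with a usable coding sequence, 1902 (17.2%) code for such a stretch. Their median log2 read ratio was -0.55, against 0.10 for the other 9179. Of the genes with the stretch 38.5% were 2-fold or more lower in exosomes and 18.1% higher, against 19.7% lower and 26.4% higher in the rest. Among all protein-coding genes these shares were 23% lower and 25.1% higher. At 10-fold the contrast was sharper, since 80 of the 119 genes that were lower by that much carry the stretch (67.2%), but 39 of the 242 that were higher (16.1%). Genes outside the secretory, membrane, vesicle and secreted signal lists described below kept the order, with a median of -0.43 for 1625 genes with the stretch and 0.11 for 8956 without it. The cutoff of 2 was chosen after the values were seen. In quintiles of the hydrophobicity value itself, which need no cutoff, the medians were 0.11, 0.16, 0.12, 0.02 and -0.47 from low to high.

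Base composition and length moved with the ratio as well. In quintiles of transcript GC content, from low to high, the median log2 read ratios were -0.78, -0.11, 0.20, 0.30 and 0.43, and the share of genes 2-fold or more lower was 41.8% in the lowest quintile and 14.7% in the highest. Across 11081 genes, which are not independent replicates, Spearman's correlation was 0.29 for transcript GC, 0.32 for GC of the 3' UTR and 0.29 for GC of the coding sequence. In quintiles of transcript length the medians were -0.47, -0.14, 0.08, 0.22 and 0.45 from short to long, and in quintiles of coding length -0.40, -0.17, -0.02, 0.19 and 0.43. Promoter GC had a value for 76.5% of the protein-coding genes, too few for that check. The difference between genes with and without the hydrophobic stretch was present in every quintile of GC. Their medians were -1.31 against -0.72 in the lowest quintile, -0.88 against 0.03, -0.50 against 0.31, -0.30 against 0.41, and 0.01 against 0.52 in the highest. Median transcript GC was 50.4% for all protein-coding genes. In the secretory lists described below it lay between 50.3% (ER translocon) and 57.8% (collagens). It was 45.6% for the 119 protein-coding genes that were 10-fold or more lower and 53.3% for the 242 that were higher. The part of GC, length or library preparation in the ratios was not tested.

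**Figure D3:**
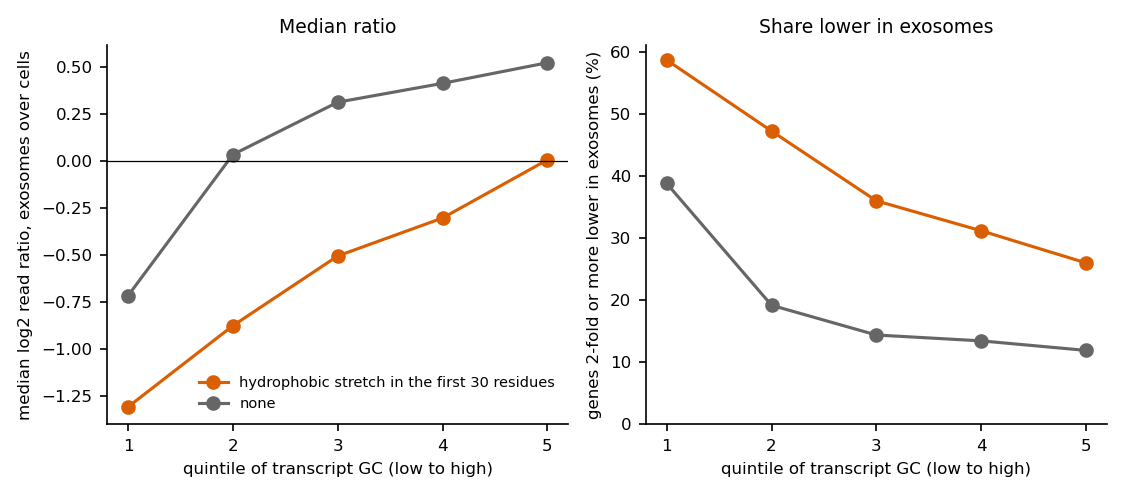
Median log2 read ratio (left) and percentage of genes 2-fold or more lower in BFC012 exosomes (right) by quintile of transcript GC content, for genes that code for a hydrophobic stretch within the first 30 residues (orange) and genes that do not (grey). The orange line lies below the grey one on the left and above it on the right in every quintile.

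Counted by function, 7 secretory lists held 194 different measured genes, of which 127 were lower in exosomes and 11 higher, with a median log2 ratio of -1.58. The list of cholesterol synthesis and uptake, also classed as secretory, was left out of these counts. It gave 8 lower and 3 higher of 23. Over all measured genes, 23.6% were lower and 25.2% higher. Of 34 ER chaperones, disulfide isomerases and collagen-modifying enzymes, 27 were lower and 0 higher. Pdia4, a disulfide isomerase, had 86 exosome reads and 4749 cell reads, a ratio of 0.0620 (0.0495 to 0.0767). Pdia3 had 452 exosome reads and 19629 cell reads (0.0788), and Hyou1, an ER chaperone, 215 and 7784 (0.0946). Txndc5 was the highest of this list at 1.84. Of 27 genes of the ER translocon, signal peptidase and glycosylation, 19 were lower and 0 higher. Stt3a, the catalytic subunit of oligosaccharyltransferase, had 483 exosome reads and 14968 cell reads (0.110). Srpr, the receptor of the signal recognition particle, stood at 0.116 and Ddost at 0.119. The ribosome-binding protein gene Rrbp1 stood at 1.22 and Ckap4 at 1.34.

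Lysosomal hydrolases and membrane proteins gave 24 lower (72.7%) and 1 higher of 33, against 23.6% lower and 25.2% higher over all measured genes. Ctsb, cathepsin B, had 251 exosome reads and 9168 cell reads (0.0937), and the exception was Npc2, a cholesterol carrier of the lysosome, with 3005 and 4125 (2.49). Collagen chains gave 14 lower and 4 higher of 22, and the 4 that were higher had at most 389 exosome reads. Those with 100 or more reads were Col11a2, Col27a1 and Col6a3, at 8.20, 4.31 and 3.35. Secreted matrix glycoproteins and proteoglycans gave 22 lower and 2 higher of 34. Dcn, decorin, had 94 exosome reads and 3388 cell reads (0.0950), and Nid1, nidogen, 351 and 13941 (0.0862). Fn1, fibronectin, one of the 5 most abundant cell messages, had 20180 exosome reads and 184478 cell reads, a ratio of 0.374. Matrix proteases and their inhibitors gave 15 lower and 1 higher of 28. Laminins and integrins were mixed, with 6 lower and 3 higher of 16. Itgb1, the common integrin chain, had 1448 exosome reads and 43863 cell reads (0.113), whereas Itgb3 stood at 6.41 with 148 and 79 reads. Of 137 solute carriers 55 were lower and 25 higher. Slc2a1, the glucose transporter, was lowest at 0.0794, and Slc26a6, an anion exchanger, stood at 8.47 with 1015 exosome reads and 410 cell reads. Cholesterol synthesis and uptake, whose enzymes sit in the ER or the cytosol, gave 8 lower and 3 higher of 23. Mvd, Stard4 and Mvk were the 3 higher ones, at 6.68, 3.59 and 3.26, and Msmo1, an ER enzyme, was lowest at 0.174.

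**Figure D4:**
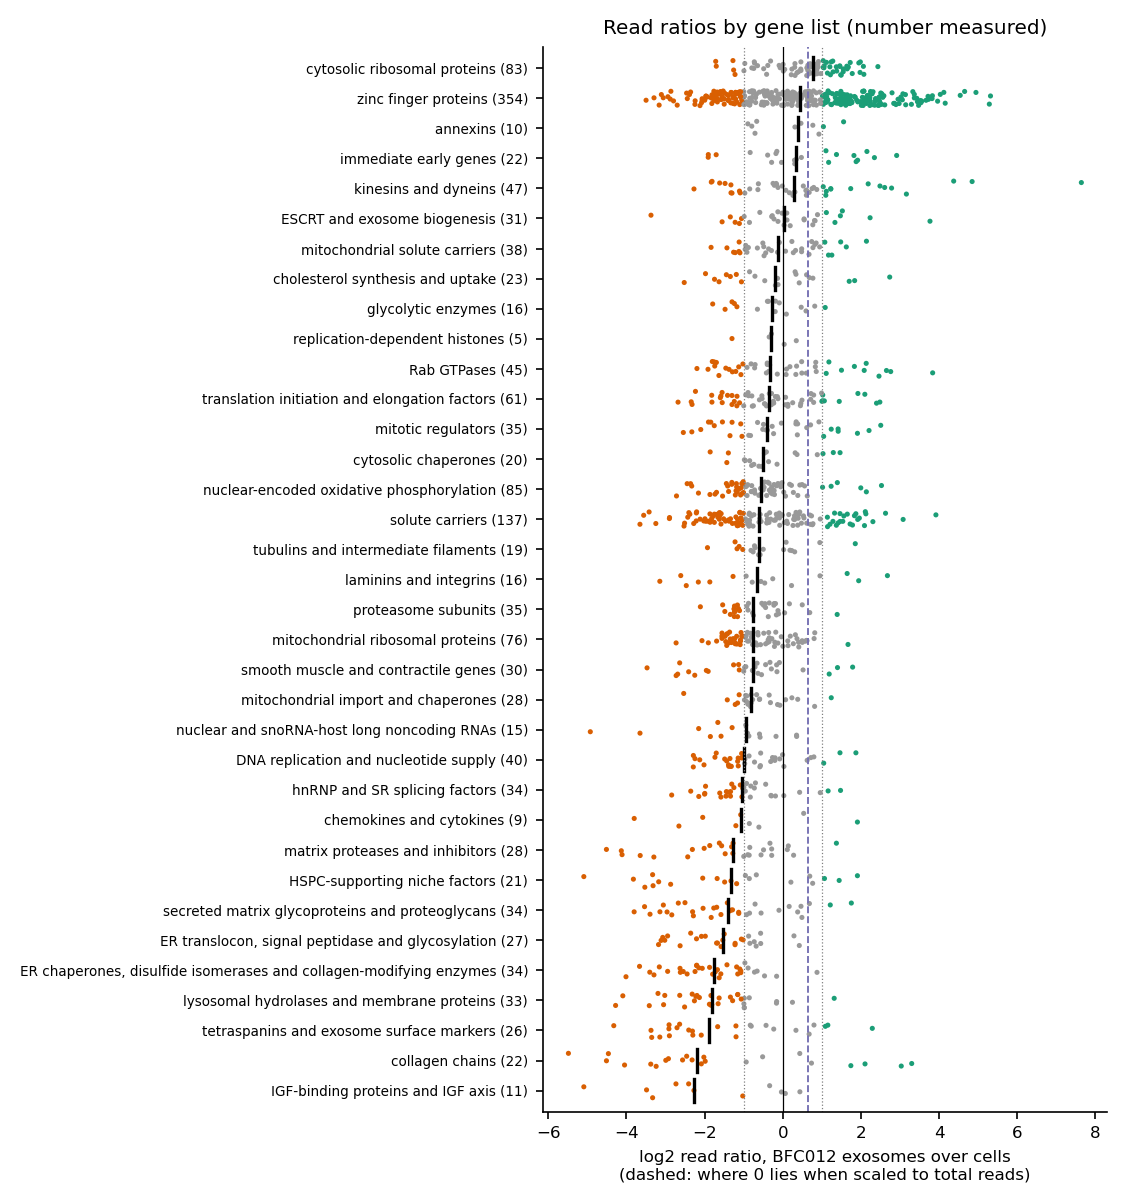
Log2 read ratios of BFC012 exosomes over cells for the measured members of 35 gene lists, ordered by median (black bar). Green points are 2-fold or more higher and orange points 2-fold or more lower; the dashed line marks where 0 would lie if each group were scaled to its total of reads, and the IGF, collagen, tetraspanin and lysosome lists lie lowest, followed by the ER lists.

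Most nuclear genes for mitochondrial proteins lay within 2-fold of the typical gene, unlike the copies of mitochondrial genes. Among all measured genes 23.6% were lower and 25.2% higher. Of 76 mitochondrial ribosomal proteins, 29 were lower and 1 higher, with a median log2 ratio of -0.76. Mrpl32 had 43 exosome reads and 976 cell reads (0.151). Mrps23 was the exception at 3.19, with a log2 ratio of 0.18 in FPKM relative to the median gene. Nuclear-encoded subunits and factors of oxidative phosphorylation gave 28 lower and 6 higher of 85, a median of -0.57. Cycs, cytochrome c, had 99 exosome reads and 2231 cell reads (0.152), while Atp5a1, the alpha subunit of ATP synthase, had 62286 and 36941 (5.77). Cox7a2l, a factor of respiratory supercomplexes, stood at 4.41. Mitochondrial import and chaperone genes gave 5 lower (17.9%) and 1 higher of 28, with Timm10 lowest at 0.173 and Tomm34 highest at 2.37. Mitochondrial solute carriers gave 7 lower (18.4%) and 6 higher (15.8%) of 38, with Slc25a40 at 0.372 and Slc25a39 at 4.42.

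Cytosolic ribosomal proteins had a median log2 ratio of 0.79. Of 83 measured, 31 were higher (37.3%) and 5 lower (6.02%), against 25.2% and 23.6% of all measured genes. Ribosomal protein genes took 5.46% of exosome reads and 4.13% of cell reads. Rpl9 had 38030 exosome reads and 24045 cell reads, a ratio of 5.41 (5.33 to 5.50), and Rpl37 and Rps19 stood at 4.22 and 4.19. Scaled to total reads the median was 0.14, with 12 higher and 15 lower, so the direction of the counts depended on the scaling. Many of these genes have near-identical pseudogenes that could share their reads, and Rps4x and Rpl10, at 0.305 and 0.414, had at most 124 exosome reads. The other cytosolic lists did not follow them. Translation initiation and elongation factors gave 17 lower (27.9%) and 9 higher (14.8%) of 61. Eif4a1, the helicase that opens messages for scanning, had 2128 exosome reads and 36940 cell reads (0.197), while Eif2d stood at 5.61. Proteasome subunits gave 13 lower and 1 higher of 35, with Psmd7 at 0.232 and Psmd5 at 2.63. Glycolytic enzymes gave 5 lower and 1 higher of 16. Gapdh had 2335 exosome reads and 27678 cell reads, a ratio of 0.289, and Pkm, pyruvate kinase, 42979 and 83327, a ratio of 1.77. Cytosolic chaperones gave 3 lower and 3 higher of 20, among them the chaperonin subunits Cct4 at 2.77 and Cct8 at 0.371.

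Nuclear and regulatory genes pointed both ways, against 25.2% higher and 23.6% lower over all measured genes. Zinc finger protein genes, most of them for DNA-binding repressors, gave 141 higher and 76 lower of 354, a median log2 ratio of 0.44 (-0.20 when scaled to total reads). Zbtb39 had 10184 exosome reads and 873 cell reads, a ratio of 39.9 (37.3 to 42.8), and Zbtb5 and Zbtb34 stood at 39.1 and 30.9. With at least 500 reads the zinc finger split was 117 higher and 32 lower of 223, against 2260 and 2077 of 9142 for all genes. Scaled to total reads it was 92 higher and 118 lower of 354, so the direction of these counts depended on the scaling. All measured genes then gave 1699 higher and 4809 lower. Immediate early genes, the first to respond to growth signals, gave 9 higher and 3 lower of 22. Atf3 had 415 exosome reads and 279 cell reads (5.09), Junb 621 and 477 (4.46), and Fosl2 4708 and 4266 (3.78). Myc, Fosl1 and Ier3 were the 3 lower ones, at 0.267, 0.267 and 0.307. Their median of 0.33 became -0.31 when scaled to total reads.

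Splicing factors of the hnRNP and SR families gave 18 lower (52.9%) and 2 higher of 34, a median of -1.03. The shares over all measured genes were 23.6% lower and 25.2% higher. Srsf5 had 584 exosome reads and 14335 cell reads (0.139), and Srsf4 was highest at 2.79. DNA replication and nucleotide supply gave 20 lower and 3 higher of 40, with Rpa3 at 0.205 and Rfc4 at 3.67. Rfc4 was listed at 0 FPKM in cells despite 2172 cell reads, so its FPKM ratio is not usable. Mitotic regulators gave 11 lower (31.4%) and 7 higher (20%) of 35. Top2a, the topoisomerase that untangles chromosomes, had 1726 exosome reads and 34450 cell reads (0.172), whereas Incenp, a scaffold of the chromosomal passenger complex, had 14101 and 10431 (4.63), and its partner kinase Aurkb stood at 0.234. Replication-dependent histones, whose messages mostly lack a polyA tail, had 5 measured members, of which 1 was lower. Nuclear and snoRNA-host long noncoding RNAs gave 7 lower and 0 higher of 15. Malat1, a nuclear-retained RNA, had 1138 exosome reads and 9559 cell reads, a ratio of 0.408, and Neat1, of nuclear paraspeckles, 3522 and 13573, a ratio of 0.888. Dleu2 stood at 0.0795 and Gas5, a snoRNA host, at 1.28.

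Motors and vesicle genes had members at both ends, against 25.2% higher and 23.6% lower over all measured genes. Kinesins and dyneins gave 14 higher (29.8%) and 10 lower (21.3%) of 47, near those shares. After Kif1c came Kif26b at 28.8 and Dynll2, a dynein light chain, with 33148 exosome reads and 5460 cell reads (20.8). Kif11, the spindle motor, had 879 and 14524 (0.207), and Kif5b stood at 0.286. Rab GTPases, which direct vesicle traffic, gave 10 higher (22.2%) and 14 lower (31.1%) of 45. Rab13 had 2253 exosome reads and 539 cell reads, a ratio of 14.3, and Rab6a 273 and 4280, a ratio of 0.218. ESCRT and exosome biogenesis genes gave 6 higher and 6 lower of 31 (19.4% each). Vps37b, a subunit of ESCRT-I, stood at 13.6 and Vps37a, its paralog, at 0.395. Pdcd6ip (Alix) had 6594 exosome reads and 12174 cell reads, a ratio of 1.85, and Tsg101 had 399 and 2463, a ratio of 0.555.

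The messages of proteins used to mark exosomes were mostly low in them. Tetraspanins and exosome surface markers gave 16 lower (61.5%) and 3 higher (11.5%) of 26, a median log2 ratio of -1.87. The shares over all measured genes were 23.6% lower and 25.2% higher. Cd63 had 234 exosome reads and 8186 cell reads, a ratio of 0.0979 (0.0856 to 0.111), Cd9 had 157 and 5561 (0.0966), and Cd81 had 244 and 4115 (0.203). Tspan17 was highest at 4.90, and Flot1, which encodes a protein attached to membranes from the cytosolic side, stood at 2.23. Annexins, which bind membranes from the cytosol, gave 2 higher (20%) and 0 lower of 10, a share higher below that of all genes. Their median of 0.39 became -0.25 when scaled to total reads. Anxa2 had 39454 exosome reads and 45835 cell reads, a ratio of 2.95 (2.91 to 2.99).

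Smooth muscle actin, Tagln and Myl9 were on the cell side, while other contractile and filament genes pointed either way or lay within 2-fold. Smooth muscle and contractile genes gave 11 lower (36.7%) and 3 higher (10%) of 30, against 23.6% and 25.2% of all measured genes. The other 16 lay within 2-fold, a share near that of all genes (6131 of 11971). Acta2, smooth muscle actin, had 2285 exosome reads and 50419 cell reads, a ratio of 0.155 (0.149 to 0.162). Tagln, an actin-binding protein, had 475 and 10116 (0.161), and Myl9, a myosin light chain, 302 and 6849 (0.151). Smtn and Mylk stood at 3.46 and 2.64. Actb, the nonmuscle actin often used for normalisation, had 7824 exosome reads and 127506 cell reads, a ratio of 0.210 (0.205 to 0.215). Tubulins and intermediate filaments gave 5 lower and 1 higher of 19. The 26.3% lower is near the 23.6% of all measured genes, and the 5.26% higher is below their 25.2%. Examples were Tuba1c at 0.263, Vim at 0.708 and Nes at 3.63. Tubulin genes resemble each other closely, so their split is uncertain.

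Secreted signals of the hematopoietic niche were mostly low in exosomes. HSPC-supporting niche factors gave 12 lower (57.1%) and 3 higher (14.3%) of 21, against 23.6% and 25.2% of all measured genes. Cxcl12, the chemokine that retains stem cells, had 27285 exosome reads and 168891 cell reads, a ratio of 0.553 (0.546 to 0.560), and was the most abundant of them in both groups. Kitl, stem cell factor, had 828 and 2450 (1.16). Bmp4 had 179 exosome reads and 7074 cell reads (0.0866), and Spp1, osteopontin, 12 and 581 (0.0707). The 3 higher ones were the cytokine Lif, with 330 exosome reads and 300 cell reads (3.77), and the Notch ligands Jag1, with 662 and 832 (2.72), and Jag2, with 111 and 181 (2.10). IGF-binding proteins and the IGF axis gave 7 lower and 0 higher of 11, with a median of -2.27 by reads and -0.85 in FPKM plus 1. Igf2, a fetal growth factor, had 6 exosome reads and 700 cell reads, a ratio of 0.0293 (0.0107 to 0.0642). Igfbp4 had 486 and 8828 (0.188), and Igf2r, the membrane receptor that clears Igf2, stood at 1.36. Chemokines and cytokines gave 5 lower and 1 higher of 9. Ccl2 had 25 exosome reads and 1193 cell reads (0.0717), Csf1 had 1253 and 17728 (0.242), and Il33, a cytokine stored in the nucleus, stood at 1.45.

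Most of this pattern was shared with AFT024. In AFT024, 24.9% of 11996 measured genes were 2-fold or more higher in exosomes and 21.7% lower. Of 11340 genes measured in both lines, 2142 were higher in exosomes of both, which is 76.3% of the BFC012 list and 77.2% of the AFT024 list. Lower in both were 1722, or 64.6% of the BFC012 list and 72.1% of the AFT024 list. Higher in BFC012 and lower in AFT024 were 25 genes, and 21 showed the reverse. Across these genes, which are not replicates and share each line's library pair, Pearson's r of the log2 ratios was 0.85 and Spearman's correlation 0.83. Kif1c stood at 200 in BFC012 and 226 in AFT024, Sos2 at 365 and 432, and the summed mitochondrial copies at 0.00639 and 0.00875. Scaling to total reads instead would move a difference between the lines by 0.07 on the log2 scale.

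A few genes had very different ratios in the lines. Among 6454 genes with at least 1000 reads in the higher group of each line, the ratio was 2-fold or more above that of AFT024 in 295 and 2-fold or more below it in 392, counting those with separate intervals. Tnc, the matrix glycoprotein tenascin C, had a ratio of 1.30 in BFC012 (6948 exosome reads, 18235 cell reads) and 0.0389 in AFT024 (65 and 11881), a difference of 5.07 on the log2 scale (4.71 to 5.42). Acta2 was low in both, at 0.155 in BFC012 and 0.0117 in AFT024 (80 exosome reads and 48812 cell reads), a difference of 3.73 (3.41 to 4.06). The list of 30 contractile genes as a whole was closer, with medians of -0.77 in BFC012 and -0.99 in AFT024. Tagln stood at 0.161 in BFC012 and 0.00840 in AFT024, Myl9 at 0.151 and 0.0162, and Pdzrn3, a ubiquitin ligase, at 0.408 and 0.0269. In the other direction Msln, mesothelin, stood at 0.0677 in BFC012 and 1.03 in AFT024, a difference of -3.93 (-4.47 to -3.38). Igfbp4 stood at 0.188 and 1.92, Snhg4 at 0.225 and 1.58, and the tubulin gene Tuba4a at 0.612 and 4.25. Ppl, periplakin, and Bmf, a promoter of apoptosis, were higher in exosomes of both lines, at 6.40 and 21.3 in BFC012 and 76.2 and 149 in AFT024.

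Over all measured genes, 25.2% were higher and 23.6% lower in BFC012, and 24.9% were higher and 21.7% lower in AFT024. The counts of each list are to be read beside these shares. By list, ribosomal proteins had 31 higher of 83 in BFC012 and 61 of 83 in AFT024, with medians of 0.79 and 1.86. Lysosomal genes had 24 lower of 33 in BFC012 and 16 of 33 in AFT024, with medians of -1.82 and -0.96. Mitochondrial ribosomal proteins had 29 lower of 76 in BFC012 and 11 of 76 in AFT024. The long noncoding RNAs had 7 lower of 15 in BFC012 and 1 in AFT024. Cholesterol genes had 3 higher of 23 in BFC012 and 8 in AFT024. In contrast, matrix glycoproteins had 22 lower of 34 in BFC012 and 28 of 33 in AFT024, with medians of -1.39 and -2.43. ER chaperones and isomerases were alike in count, with 27 lower of 34 in BFC012 and 25 in AFT024. With 1 line of each label, the line and its HSPC support cannot be told apart.

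**Figure D5:**
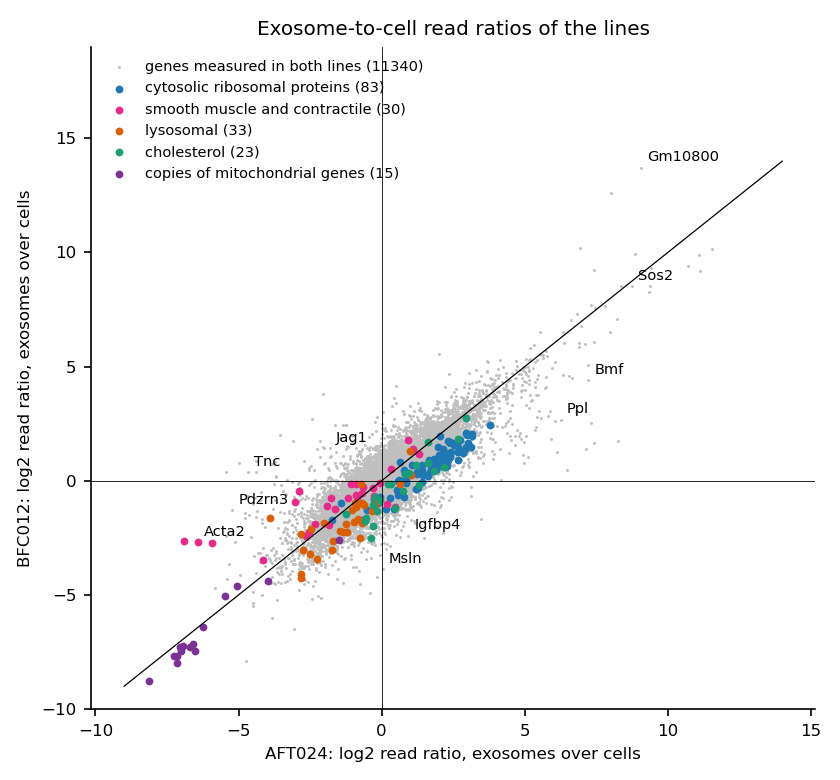
Log2 read ratio of exosomes over cells in BFC012 (vertical) against AFT024 (horizontal) for genes measured in BFC012 with a ratio in AFT024; the diagonal marks equal ratios. Most ribosomal protein genes lie right of the diagonal, the contractile genes Acta2, Tagln and Myl9 lie left of it, and most copies of mitochondrial genes lie at the lower left.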

How the data were processed

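PolyA RNA was enriched with oligo-dT beads and sequenced from TruSeq RNA V2 libraries, per the labels' protocols, a kit that does not mark strand. The authors deposited 1 value per gene and merged group: normalized reads in tables of paired groups, and FPKM in a table of all groups. Bowtie, TopHat, Cufflinks and mm10 are named in the submitters' processing notes, without versions. Each column's smallest positive value was taken as 1 read, which turned the normalized reads into whole reads; 100% of values were whole within 0.01. The deposited p, q and fold columns were not used, nor were 12 columns of small RNA values.

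Read ratios were scaled to the median gene with at least 50 reads over both groups. A count of 0 was replaced by 3 reads, which is 0.184 RPM in exosomes and 0.0836 RPM in cells. Intervals are exact Clopper-Pearson bounds at 95% and cover counting error only. FPKM ratios used log2 of FPKM plus 1 among genes with at least 1 FPKM. Of 5097 genes counted by reads that had such a ratio, 77.2% passed 2-fold the same way in FPKM relative to the median gene. The opposite way was taken by 19. A further limit is that 334 measured genes were listed at 0 FPKM in a BFC012 group with 20 or more reads. No test was possible with 1 merged value per group.

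Named genes were the 12 highest and 12 lowest protein-coding genes with at least 1000 reads and 10 FPKM in the higher group, the 10 genes with the most exosome reads and the 5 with the most cell reads, the 3 highest and 3 lowest members of each list with at least 100 reads, and the 6 at each end between the lines. A few further list members, such as Rrbp1, Dleu2 and Vps37a, were picked after their values were seen, and some genes that met the rule are not reported here. Members and gene lists were chosen with earlier results of these data known. Sequences and coordinates are from GENCODE M21 on GRCm38, the same assembly as mm10. Copies of mitochondrial genes were found with blastn 2.17.0 at 90% identity or more. Scripts ran in Python 3.11.15 with scipy 1.17.1 and were tested on simulated data.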

Additional observations from a re-analysis of the deposited data

Results flagged for a closer look

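Jag1, a Notch ligand, pointed opposite ways in the lines. Its read ratio of exosomes to cells was 2.72 in BFC012 (662 exosome reads and 832 cell reads, counting interval 2.46 to 3.02) and 0.285 in AFT024 (10 exosome reads and 250 cell reads). The difference between the lines was not tested, since each group has 1 merged value.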

How the results depend on the processing

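The counts depended mainly on the scaling. The main counts of 3017 higher and 2823 lower genes became 1699 and 4809 when scaled to total reads, and 1232 and 6663 in FPKM as deposited. FPKM without a filter gave 1396 and 6150, and a filter of 1 read gave 4253 lower genes. Leaving the 100 genes with the most exosome reads out of the totals gave 2369 and 3702, with 39.0% of counted genes higher. The other alternatives moved both counts by less than 1.5 times. Of 35 lists, 26 kept the sign of their median under every alternative. All 7 secretory lists, with the cholesterol list left out, kept more lower than higher members. The collagen median was 0.034 in FPKM without a filter. FPKM as deposited shifts the median gene by -0.92, which made these log2 ratios negative: Eef2 -0.063, Tcp1 -0.36, Mrps23 -0.74, Loxl3 -0.43, Slc25a51 -0.40, Jag2 -0.019, Tspan33 -0.042 and Prim2 -0.074; relative to the median gene they lay between 0.18 and 0.90. On that scale Hk2 was 0.38 with 1 FPKM added and 0.52 with 0.1 added. The cause for Hk2 and the collagens was not tested. Median log2 ratios of kinesins and dyneins, ESCRT genes, annexins, zinc finger proteins and immediate early genes were below 0 when scaled to total reads. The ESCRT median, 0.034 in the main scaling, was also -0.25 with the 100 genes with the most exosome reads left out. In FPKM relative to the median gene it was -0.18 with 1 FPKM added and -0.021 with 0.1 added. No replicate could be left out, since the values are merged. No paired analysis was possible because each group has 1 merged value. Genes with few reads have wide intervals, and 28 measured genes had 0 exosome reads.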
